A study of Ramazzottius varieornatus with 27 samples.

Results

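In the water bear Ramazzottius varieornatus, 167 genes were well expressed through 2 or more transcript models, and they are described here from non-irradiated animals to 24 h after 500 Gy of gamma ray. A gene was taken where the expression table holds at least 2 models of it, where the sum over its models (the gene sum) averaged at least 20 over all 27 libraries, and where its second most abundant model held at least 20% of that mean sum. The 167 genes are part of 13920 genes in all, of which 551 have 2 or more models. They were chosen by their mean values over all libraries, so their mean sums and mean shares are given as a description, and tests are given only for differences between groups of libraries.

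RNA was taken from whole animals, 30 per sample, from controls that were not irradiated and at 4, 6, 9, 12, 15, 18, 21 and 24 h after 500 Gy of gamma ray, with 3 samples per group. The animals were reared on agar with Chlorella and no strain, sex or age is given for them, and no sampling time is given for the controls. By the study's description the 3 samples of a group are technical replicates, so p-values measure only the spread between these samples. The cDNA of 4 h and of 6 h replicates 1 and 2 was amplified by 15 cycles of PCR, that of 6 h replicate 3 to 21 h replicate 3 by 21 cycles and that of 24 h by 23 cycles, and no number is given for the controls. Time after irradiation and the number of cycles can therefore not be told apart, except among libraries that share either of them. Those of 9 h to 21 h share 21 cycles. Those of 4 h and 6 h replicates 1 and 2 share 15 cycles, and the 3 libraries of 6 h share the time.

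Tardigrades of this species survive drying and high doses of ionizing radiation, which breaks DNA and sets off repair. A gene can be transcribed into several RNAs that differ in the exons they join or in where they start or end, and a change in the balance between them can alter the protein without a change in the amount of RNA. The sum over the models of a gene and the share of each model are therefore separate measures of a response.

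The values are TPM (the share of a model among all RNA after division by its length), scaled between libraries. The authors had RSEM divide the reads that match several models of a gene between these models by an estimate, so the gene sum is read more directly than the share. TPM values hold no counts, so no counting error is given for a share in a library, and a model listed at 0 is called that and not absent. None of the 167 gene IDs matched an entry of the RefSeq gene table of this species (assembly Rvar_4.0), so no gene names, roles or tissue markers are given. RNA of whole bodies was measured, and fewer cells of a type and less RNA per cell cannot be told apart in it.

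Of the 167 genes, 151 had 2 models and 16 had 3 or more, 352 models in all. The most abundant model (model 1 here) was the one numbered t1 in 92 genes, t2 in 73 and a later number in 2. The mean gene sum ran from 20.2 to 1864 with a median of 75.9. Model 1 held a median of 64.9% of it and model 2 a median of 34.1%, and in 42 genes model 2 held 40% or more. At the limits of the choice, g10916 was just inside with 20.7% in model 2 and g3731 just outside with 19.9%, and g1993 was just inside with a mean sum of 20.2 and g3420 just outside with 19.4.

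The set depended on which libraries were averaged, as 18 of the 27 come from 9 h to 24 h. With the same limits on the 3 controls alone 149 genes passed, and 120 of them were among the 167 (71.9% of the 167 and 80.5% of those that passed). With the libraries of 4 h and 6 h, 156 passed and 140 were shared (83.8% and 89.7%). With those of 9 h to 24 h, 170 passed and 163 were shared (97.6% and 95.9%). In 96 of the 120 genes shared with the controls model 1 was the same model.

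Replicates of a group held close gene sums and far apart shares. Within groups the coefficient of variation (CV, the SD as a percent of the mean) of the gene sum had a median of 16.0% over the 167 genes, that of model 1 34.6% and that of model 2 57.9%. The sum varied less than either leading model in 162 of 167 genes. Around the group means models 1 and 2 moved in opposite directions in 150 genes, with a median correlation of -0.69, given as a description over 27 libraries that share the division of reads within a gene. In 105 genes the CV of model 2 was over 50%.

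**Figure D1:**
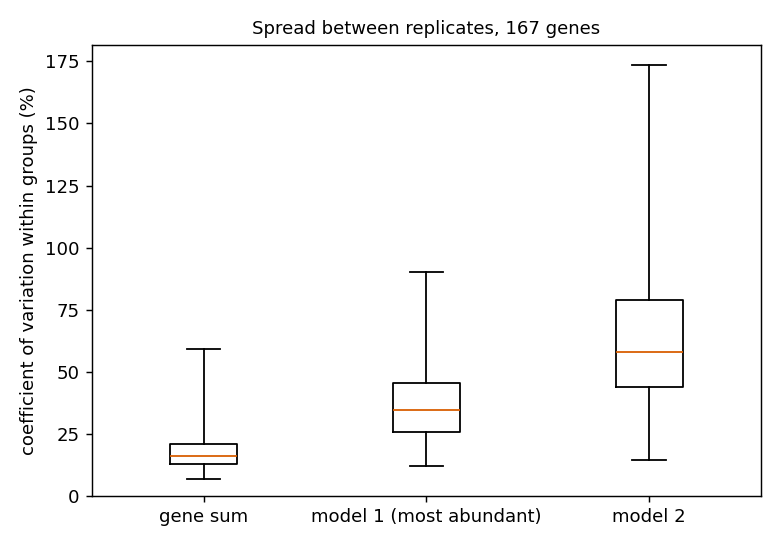
Coefficient of variation within groups, in percent, of the gene sum and of the 2 leading models over 167 genes. Boxes give the quartiles and median and whiskers the lowest and highest gene. The medians are 16.0% for the sum, 34.6% for model 1 and 57.9% for model 2.

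The share of model 1 had a pooled SD within groups of 19.3 percentage points in the median gene, beside a median range of 35.6 points between the lowest and the highest of the 9 group means. In 13 genes the SD was larger than that range. In 119 genes the 3 replicates of at least 1 group lay 50 points or more apart, and in 43 genes 90 points or more, so that model 1 held nearly all of the gene in a replicate and nearly none of it in another.

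The spread differed between groups. The median SD of the share was 6.93 points at 4 h and 7.89 at 6 h, with 11.8 for the controls, 11.2 for 12 h, 12.5 for 15 h and 13.2 for 21 h. It was 24.2 points at 9 h, 19.9 at 18 h and 20.5 at 24 h. Replicates lay 50 points or more apart in 68 genes for 9 h, 58 for 18 h and 57 for 24 h, against 4 for 4 h and 8 for 6 h. The median share of model 1 itself stayed between 64.0% and 67.7% in all 9 groups. The median CV of the gene sum ran from 10.4% at 4 h to 17.3% at 9 h, and 9 h, 18 h and 24 h were the 3 highest groups in it too.

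Models listed at 0 were concentrated in few libraries. In 9 h replicate 1, 91 of the 167 genes had 1 of their 2 leading models listed at 0, and at 18 h the numbers were 3, 63 and 30 in replicates 1 to 3. At 24 h they were 18, 52 and 46, and in the controls 9, 8 and 38. The 6 libraries of 4 h and 6 h had between 3 and 13 such genes, and those of 12 h between 6 and 14. At 9 h replicate 1 differed from replicate 2 by a median of 33.5 points and from replicate 3 by 32.5, while replicates 2 and 3 differed by 13.4. The libraries with many models at 0 also had fewer transcripts above 0 in the whole table, 9575 in 9 h replicate 1 and 10570 in 18 h replicate 2 against 13667 in 6 h replicate 2, and by the methods 9 h replicate 1 showed signs of adapter dimers, after which the pooled libraries were selected by size. The study also lists fewer reads mapped to coding sequences for many libraries than for any of 4 h and 6 h. They include control replicate 3, 18 h replicates 2 and 3 and all of 24 h. They also include 9 h replicates 1 and 2, 15 h replicates 2 and 3 and 21 h replicates 1 and 2. The study lists fewer too for control replicate 2, all of 12 h and 15 h replicate 1, where 6 to 14 genes had a model at 0. For 9 h replicate 1 it lists more than for 9 h replicate 2. The part of any of these in the shares was not tested.

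**Figure D2:**
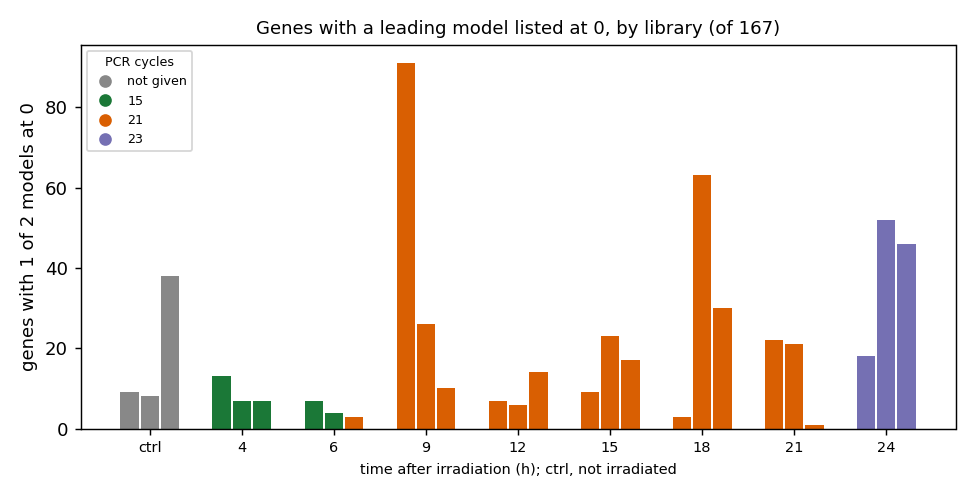
Number of the 167 genes in which 1 of the 2 leading models was listed at 0, for each of the 27 libraries by group, with colours for the number of PCR cycles. The bar of 9 h replicate 1 stands at 91 and that of 18 h replicate 2 at 63, against 3 to 13 in the libraries of 4 h and 6 h.

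Over the 27 libraries both leading models stayed above 0 in 34 genes. Model 1 was at 0 in at least 1 library in 78 genes and model 2 in 119, and in 64 genes each of them was at 0 somewhere. The gene sum was above 0 in every library in 166 genes, and only g10219 was at 0, in 9 h replicate 1.

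The share was then compared between groups with limma on log2 of (model 1 + 1) over (the other models + 1), adjusted by Benjamini-Hochberg over all 495 genes with 2 or more models that were tested. A gene was called at an adjusted p under 0.05 and a difference of at least 10 points between group mean shares. Among the 9 groups 17 of the 167 genes had an unadjusted p under 0.05 by limma, beside 56 of all 495. The share of 5 of the 167 genes changed (2.99%), beside 1.82% of all genes tested. These were g5150, g10432, g11205, g7105 and g1164. In each of them a model that held little of the gene in the controls and at 4 h held 18.4% or more of it in the mean of every group from 9 h on. The choice of genes favours this direction. The gaining models held a mean of 0.292%, 2.37%, 1.497%, 7.68% and 0% of these genes in the controls, under the limit of 20%, and met it through the later libraries, which are 18 of the 27.

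The models that gained are shown for every library, since the calls rest on few libraries. In g5150 the model t2 was at 0, 0 and 0.251 in the controls and at 0 in all samples of 4 h. It reached 6.89, 0 and 32.0 at 6 h, 25.2, 36.6 and 49.3 at 9 h, 26.2, 39.6 and 28.4 at 12 h and 27.6, 30.7 and 28.6 at 15 h. It was at 38.5, 44.2 and 36.5 at 18 h, 28.4, 37.1 and 39.3 at 21 h and 31.8, 48.9 and 7.78 at 24 h. Every library from 9 h on was above every library of the controls and 4 h, and 24 h replicate 3 was the lowest of them. The other model, t1, was between 18.4 and 35.9 in the controls and at 4 h and between 0.705 and 41.7 from 9 h on, so that the groups overlapped for it. The share of t2 went from 0.292% ± 0.505 (SD, n = 3) in the controls to 82.7% ± 13.4 at 9 h, 55.5% ± 17.8 at 12 h and 51.2% ± 34.8 at 24 h (adjusted p = 0.00285 among the 9 groups by limma). The gene sum rose with it, from 25.6 ± 6.29 to 57.6 ± 5.01 at 12 h (1.17 on the log2(value + 1) scale, SE 0.23, adjusted p = 0.000635 by limma).

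In g10432, which has 3 models, t2 was at 2.00, 2.99 and 0 in the controls and at 16.3, 1.42 and 5.04 at 4 h. At 6 h it was at 9.50, 5.57 and 59.4, at 9 h at 93.1, 64.5 and 77.4 and at 12 h at 56.6, 76.5 and 105. The later libraries lay between 37.7, in 18 h replicate 3, and 105, in 24 h replicate 1. From 9 h on no library overlapped with the controls, 4 h or 6 h replicates 1 and 2, while t1 ran from 57.2 to 75.1 in the controls and from 33.3 to 92.5 later, and t3 stayed at 10.7 or less. In share, t1 fell from 93.5% ± 5.34 to 39.2% ± 11.8 by 12 h, with 39.6% ± 12.2 by 24 h (SD, n = 3; adjusted p = 0.00454 among the 9 groups, 0.00261 at 12 h and 0.00225 at 24 h by limma). The gene sum rose from 73.6 ± 7.82 in the controls to 154 ± 12.2 at 24 h (1.06 on the log2(value + 1) scale, SE 0.13, adjusted p = 1.16e-05 by limma).

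In g11205 the split moved while the sum stayed within its spread. Here t2 was at 0, 0 and 3.91 in the controls and at 0 at 4 h. It was at 0, 0 and 53.3 at 6 h, at 95.4, 40.8 and 43.9 at 9 h and at 37.5, 70.5 and 53.3 at 12 h. After 69.6, 45.4 and 27.4 at 15 h it was at 73.2, 7.94 and 6.02 at 18 h, at 53.8, 39.5 and 54.6 at 21 h and at 28.7, 5.67 and 41.5 at 24 h. The replicates of 18 h and of 24 h thus did not lie together, although each was above the highest control. The model t1 was at 95.4, 67.8 and 83.1 in the controls and at 0, 52.4 and 45.3 at 9 h. In share, t1 stood at 98.5% ± 2.59 in the controls and 48.3% ± 14.7 at 12 h (adjusted p = 0.0386 among the 9 groups by limma), and the highest and lowest group mean of the gene sum differed 1.27-fold (adjusted p = 0.423).

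In g7105 the model t3 rose, while t2 overlapped between the controls and the later libraries and reached higher values in the later ones. The model t3 was at 3.76, 1.13 and 0.381 in the controls, at 8.30, 5.46 and 3.02 at 4 h and at 7.04, 9.20 and 22.4 at 6 h. It was between 14.7 and 68.2 from 9 h on, and all of those libraries were above the controls, 4 h and 6 h replicates 1 and 2. Over the same samples t2 ran from 14.4 to 33.7 in the controls and from 13.8 to 51.6 from 9 h on. The share of t2 was 92.3% ± 6.76 for controls, 47.4% ± 8.85 for 12 h and 37.9% ± 15.8 for 24 h (adjusted p = 0.0489 among the 9 groups and 0.0149 at 24 h by limma). The gene sum went from 25.1 ± 9.28 to 63.2 ± 15.5 at 12 h (1.34 on the log2(value + 1) scale, SE 0.25, adjusted p = 0.000353 by limma).

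In g1164 the model t2 was listed at 0 in all controls, at 4 h and in 6 h replicates 1 and 2, and at 71.8 in 6 h replicate 3. At 9 h it was at 167, 4.11 and 98.9, at 12 h at 57.5, 109 and 108 and at 15 h at 107, 63.6 and 44.4. It was at 143, 92.1 and 92.3 at 18 h, at 0, 30.6 and 115 at 21 h and at 94.3, 93.4 and 44.3 at 24 h. Of the 18 libraries from 9 h on, 17 were above all early ones, and 21 h replicate 1 was at 0 like the controls. The model t1 stayed between 118 and 240.0 throughout. The share of t1 was 100% for controls, 66.7% ± 8.86 for 12 h and 69.2% ± 11.6 for 24 h (adjusted p = 0.0163 among the 9 groups and 0.0417 at 24 h by limma), and the sum did not pass the test (adjusted p = 0.0523).

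**Figure D3:**
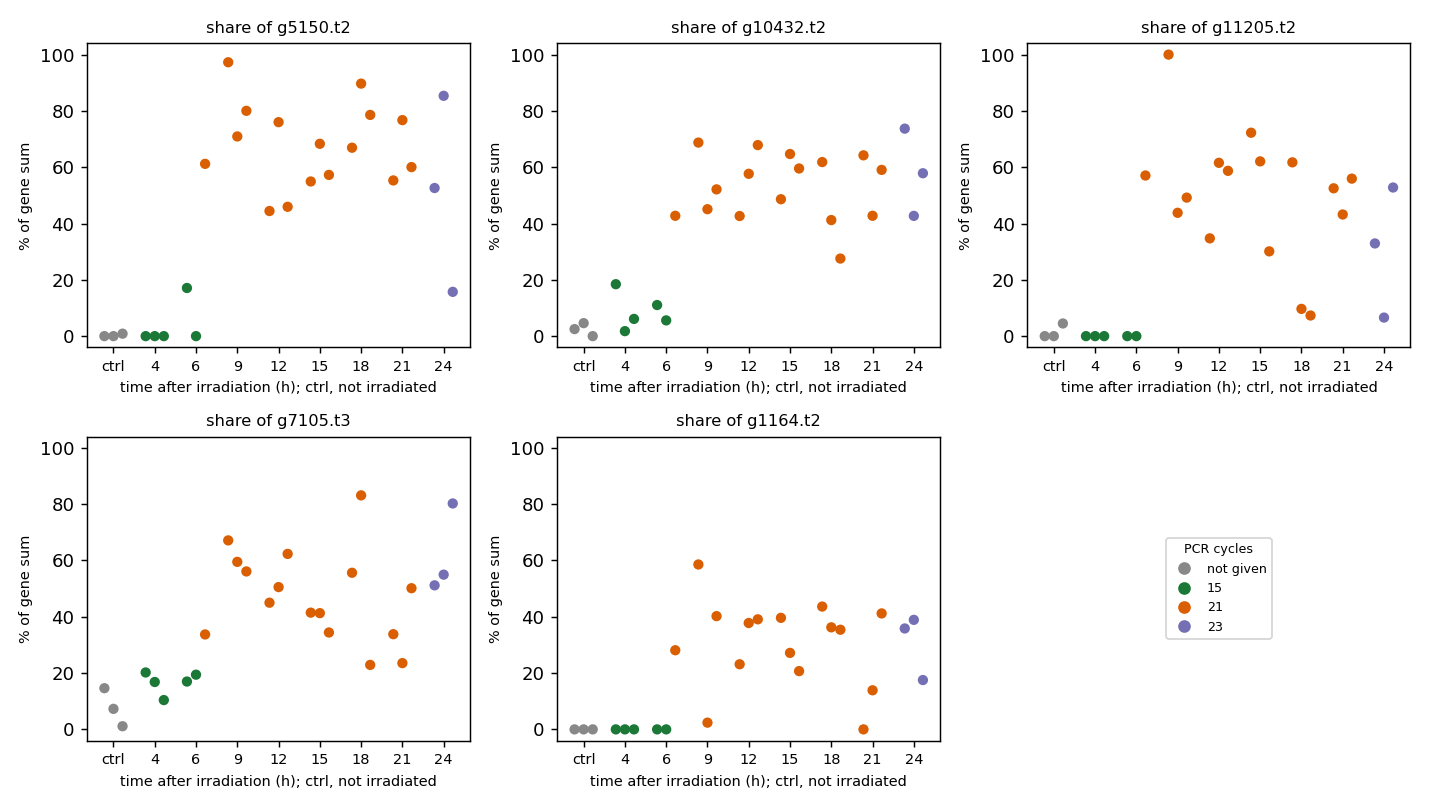
Share of the gene sum, in percent, held by the model that gained in each of the 5 genes called in the share, for each of the 27 libraries, with colours for the number of PCR cycles. In all 5 panels 6 h replicate 3 (21 cycles) lies above 6 h replicates 1 and 2 (15 cycles), for g5150.t2 at 61.2% against 17.1% and 0%.

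The 3 libraries of 6 h did not lie together in these 5 genes. In 6 h replicate 3, amplified by 21 cycles, the gaining model held 61.2% of g5150, 42.7% of g10432, 57.1% of g11205, 33.7% of g7105 and 28.1% of g1164. In replicates 1 and 2, with 15 cycles, it held at most 17.1%, 11%, 0%, 19.4% and 0% of the same genes. Replicate 3 was thus inside the range of 9 h to 24 h in all 5 and above the highest of the 8 libraries of the controls, 4 h and 6 h replicates 1 and 2, which lay at 17.1%, 18.4%, 4.49%, 20.2% and 0%. As 6 h replicate 3 is a lone library, no test of this difference was made.

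The same was looked for in all 352 models of the 167 genes, by a rule chosen after the values were seen (at most 10% of the gene in each of the 8 early libraries, at least 20% in 6 h replicate 3). It picked 6 models, g814.t2, g1164.t2, g6170.t3, g7215.t2, g11205.t2 and g12633.t2. With each of the 8 early libraries in turn in the place of 6 h replicate 3 and the other 7 as the low ones, it picked 3 models in control replicate 3 (g6550.t1, g6559.t1 and g6563.t2) and 0 in each of the other 7 libraries. The 167 genes were chosen by means in which most libraries are late, which favours models that are low early and high late. The number for 6 h replicate 3 can therefore not be weighed against those for the early libraries. For g814.t2, g6170.t3 and g12633.t2, each model 2 of its gene, the same choice favours the counts of later libraries that follow. Those counts are given as a description. In g814 the model t2 was listed at 0 in the controls and at 4 h, at 0, 2.18 and 56.3 at 6 h and at 40.9, 39.1 and 142 at 12 h, and it held at least 20% of the gene in 16 of the 18 libraries from 9 h on. The share of g814 did not pass the test (adjusted p = 0.0632 among the 9 groups by limma). In g7215 the model t2 was listed at 0 in all 8 early libraries, at 22.9 in 6 h replicate 3 and between 0 and 71.5 later, and it held 20% or more in 9 of 18 libraries, as did g6170.t3. In g12633 the model t2 was at 0 in the same 8 libraries, at 23.8 in 6 h replicate 3 and at 20% or more in 11 of 18 later ones.

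At the single times the share tests called few genes. Of all 495 genes tested, 8 had an unadjusted p under 0.05 at 4 h, 36 at 12 h and 59 at 24 h by limma. At 4 h against the controls 0 genes were called, beside 0.202% of all genes tested, and 2 of the 167 had an unadjusted p under 0.05 with limma. At 12 h 1 gene was called, g10432, beside 0.606%, with 12 at an unadjusted p under 0.05. At 24 h 5 genes were called (beside 2.02%), with 25 at an unadjusted p under 0.05. The share of model 1 was higher in g5150 and g3270 (2 genes, beside 1.01%) and lower in g10432, g7105 and g1164 (3 genes, beside 1.01%). In g3270, named because it was called here, t1 was at 16.5, 9.50 and 0 in the controls and 76.6, 80.1 and 27.8 at 24 h, and t2 at 46.7, 44.4 and 43.6 against 4.44, 13.02 and 11.4. Controls and 24 h did not overlap in either model. The share of t1 went from 14.6% ± 13.3 to 83.8% ± 12.0 (SD, n = 3; adjusted p = 0.0417 by limma), while the test among the 9 groups was not passed (adjusted p = 0.153).

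Among 9 h to 21 h, the groups with the same number of cycles, the share of 0 genes passed the limma test, beside 0.202% of all genes tested. An unadjusted p under 0.05 was found in 14 of the 167, beside 34 of all 495 genes tested. Of the named genes g5794 (adjusted p = 0.391 by limma) and g10545 (adjusted p = 0.425) had shares that were lowest at 21 h. In g10545 model 1 held 81.6%, 88.8% and 76.4% of the gene at 9 h and 42.8%, 28.9% and 41.9% at 21 h. In g5794 it held 71.5%, 67.4% and 71.7% at 9 h and 29.6%, 56.4% and 41.3% at 21 h. The libraries of 9 h and 21 h did not overlap in either gene, given as a description since 21 h was picked as the lowest group. For a gene and 2 groups fixed beforehand, 3 against 3 samples lie apart with a probability of 0.1 even where nothing differs. Many genes and groups here were picked by their values, and for these the probability is higher.

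Leaving out 1 library at a time moved the share calls. The counts are of the chosen genes only and do not show whether calls among all genes tested moved alike. Among the 9 groups 2 to 9 genes were called, with 2 without control replicate 1, 4 h replicate 1 or 4 h replicate 3 and 9 without 24 h replicate 3, and 3 without any of 4 h replicate 2, 6 h replicates 1 and 2, 12 h replicates 1 to 3, 15 h replicate 2 and 21 h replicate 1. Across all 27 such fits the calls of g5150 and g10432 held in 27, that of g1164 in 24, that of g11205 in 13 and that of g7105 in 9. Without the 5 libraries in which over 35 genes had a leading model at 0, a choice made after seeing the data, g1164 (adjusted p = 0.108) and g7105 (adjusted p = 0.114) did not pass the limma test and g5794 did (adjusted p = 0.0186). At 24 h the call of g10432 held in 27 of the 27 fits and that of g7105 in 25, but that of g3270 in 13, that of g1164 in 12 and that of g5150 in 8. At 24 h the number ran from 1 without control replicate 3 to 8 without 9 h replicate 1, and at 12 h from 1 to 5 without 9 h replicate 1.

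Over the whole set the direction of the share was divided. From the controls to the mean of the groups of 9 h to 24 h the share of model 1 moved by a median of 9.41 points in either direction, by at least 10 points in 79 genes and at least 20 in 32, and it was lower late in 91 genes. In 34 genes model 1 held over 50% of the gene in either the controls or the later groups and not in the other. These are differences of means, given as a description with no test, beside the pooled SD of 19.3 points in the median gene.

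**Figure D4:**
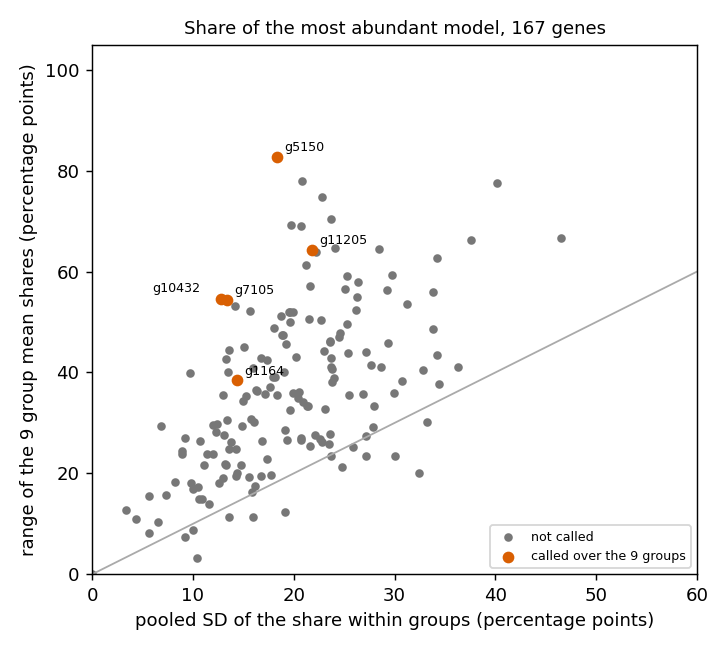
Each point is a gene. The horizontal axis is the pooled SD of the share of model 1 within groups and the vertical axis the range between its 9 group means, both in percentage points, with a line where the 2 are equal. The 5 genes called among the 9 groups are named, and 13 genes lie below the line.

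The gene sum was tested with limma on log2(gene sum + 1), adjusted over all 12368 genes with a sum of at least 1 in at least 3 libraries, and a gene was called where the adjusted p was under 0.05 and its group means differed over 2-fold. Among the 9 groups 53 of the 167 sums changed (31.7%), beside 20.7% of all genes tested and 27.3% of those with a mean sum of at least 20. Of the 53, 36 were higher and 17 lower from 9 h to 24 h than in the controls. Of all genes called among the 9 groups, 1028 were higher and 1536 lower by the same measure. At 4 h against the controls 0 sums were called (beside 0.655%). There 22 of the 167 had an unadjusted p under 0.05 by limma, beside 1090 of all 12368 genes tested. Of the 5 genes called in the share, g5150, g10432 and g7105 were also called in the sum.

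Against the controls 35 sums were called at 12 h (beside 10.9% of all genes), 21 higher (beside 3.89%) and 14 lower (beside 6.97%). At 24 h 28 were called (beside 12.4%), 22 higher (beside 4.76%) and 6 lower (beside 7.65%). Both comparisons use the same 3 controls. The called sums rose by a median of 1.14 and fell by a median of 1.27 at 12 h on the log2(value + 1) scale. Over all 167 genes the median difference was 0.24 at 12 h and 0.19 at 24 h, against -0.05 and -0.08 over all genes tested. With every library brought to the same total, which moved the median of all genes at 12 h to 0.07, 35 sums were higher and 10 lower at 12 h, and 39 higher and 6 lower at 24 h. This scaling moved all genes too. Of all genes called, 56.0% were then higher at 12 h and 58.1% at 24 h, against 35.8% and 38.4% before. Of the called genes among the 167, 77.8% and 86.7% were higher, against 60% and 78.6% before. Without control replicate 2, 17 sums were called at 24 h, with no count over all genes given beside it.

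Most of the sums called at 12 h moved through both leading models. Of the 21 higher at 12 h, both models had higher means in 19, and both were over 2-fold higher in 4. In the 14 lower ones both models were lower, over 2-fold in 7. At 24 h both models were higher in 16 of the 22 and the models had opposite directions in 6, while both were lower in all 6 that fell.

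By the mean of 9 h to 24 h less that of the controls, the called genes with the largest rise were g4791 (1.58 on the log2(value + 1) scale), g579 (1.49), g7105 (1.44), described above, and g9772 (1.39). In g579 the gene sum was at 51.2, 42.9 and 43.8 in the controls, 66.5, 56.5 and 61.8 at 4 h, 67.8, 78.1 and 112 at 6 h and 113, 132 and 144 at 12 h. The highest was 157 in 18 h replicate 1. Every sample at 4 h was above every control, every sample from 9 h on was above 4 h and 6 h replicates 1 and 2, and the 12 h sum was 1.47 higher than the controls on the log2(value + 1) scale (SE 0.14, adjusted p = 2.31e-06 by limma). The group means of the share of t2 lay between 66.3% and 82.5% and did not pass the test (adjusted p = 0.923).

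In g4791 the sum was at 28.9, 13.5 and 30.7 in the controls and at 74.3, 52.8 and 83.1 at 12 h, with no overlap (1.55 on the log2(value + 1) scale, SE 0.29, adjusted p = 0.000374 by limma). It was lower at 15 h, at 47.8, 38.4 and 38.9, than at any other time from 9 h on in group means. Its replicates did not share a split, as model t1 held 68.0%, 100% and 0% of the gene in the 3 controls. In g9772 the sum was at 10.6, 6.53 and 17.6 in the controls, at 22.995, 59.6 and 61.1 at 9 h and at 26.4, 18.1 and 32.0 at 12 h, where the lowest sample was just above the highest control (1.14 on the log2(value + 1) scale, SE 0.40, adjusted p = 0.0392 by limma). That call was lost without control replicate 1 or 2 or without 12 h replicate 1 or 3.

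By the same measure the largest falls were in g2952 (-2.06), g6538 (-1.82), g9255 (-1.50) and g6281 (-1.31). In g2952 the sum was at 397, 439.6 and 215 in the controls, at 123, 225 and 227 at 4 h, at 112, 105 and 70.6 at 6 h and at 78.8, 82.1 and 49.4 at 12 h. All samples from 6 h on were below all controls, and 4 h lay across the lowest control. The sum at 12 h fell by 2.27 on the log2(value + 1) scale (SE 0.28, adjusted p = 9.29e-06 by limma). Both models were lower at 12 h in group means. Among controls t1 held 63.5% ± 2.51 (SD, n = 3) and among 4 h samples 59.3% ± 3.84, while at 18 h t1 held 66.0%, 0% and 82.0% of the gene.

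In g6538 the sum was at 633, 625 and 630.2 in the controls, 549, 461 and 323 at 4 h, 455, 449 and 219.8 at 6 h and 195, 144 and 179 at 12 h. No sample after irradiation reached a control, and 6 h replicate 3 lay within the range of 9 h to 24 h while 6 h replicates 1 and 2 lay within that of 4 h. The sum at 12 h fell by 1.87 on the log2(value + 1) scale (SE 0.24, adjusted p = 1.26e-05 by limma). Over this fall the group means of the split stayed close together. The share of t1 was 61.5% ± 2.16 for controls, 60.3% ± 6.45 for 12 h and 61.1% ± 16.8 for 24 h (SD, n = 3), and the 9 group means spanned 3.16 points, although 18 h replicate 2 stood at 86.2% and 18 h replicate 3 at 43.2%.

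In g9255 the controls had sums of 68.2, 48.3 and 42.7 and the 12 h samples 13.9, 12.97 and 17.2, without overlap (it fell by 1.77 on the log2(value + 1) scale, SE 0.39, adjusted p = 0.00142 by limma), and 4 h replicate 2 was at 59.2, within the controls. In g6281 it was at 63.2, 55.5 and 28.8 in the controls, 3.57, 12.5 and 24.4 at 4 h, 6.75, 10.04 and 2.79 at 6 h and 8.31, 15.7 and 9.39 at 12 h. This gene was lowest at 6 h and all samples of 4 h to 12 h but 9 h replicate 2, at 31.5, were below the lowest control. Its sum at 12 h fell by 2.02 on the log2(value + 1) scale (SE 0.55, adjusted p = 0.00823 by limma), and model t2 held all of it in the 3 samples of 12 h.

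**Figure D5:**
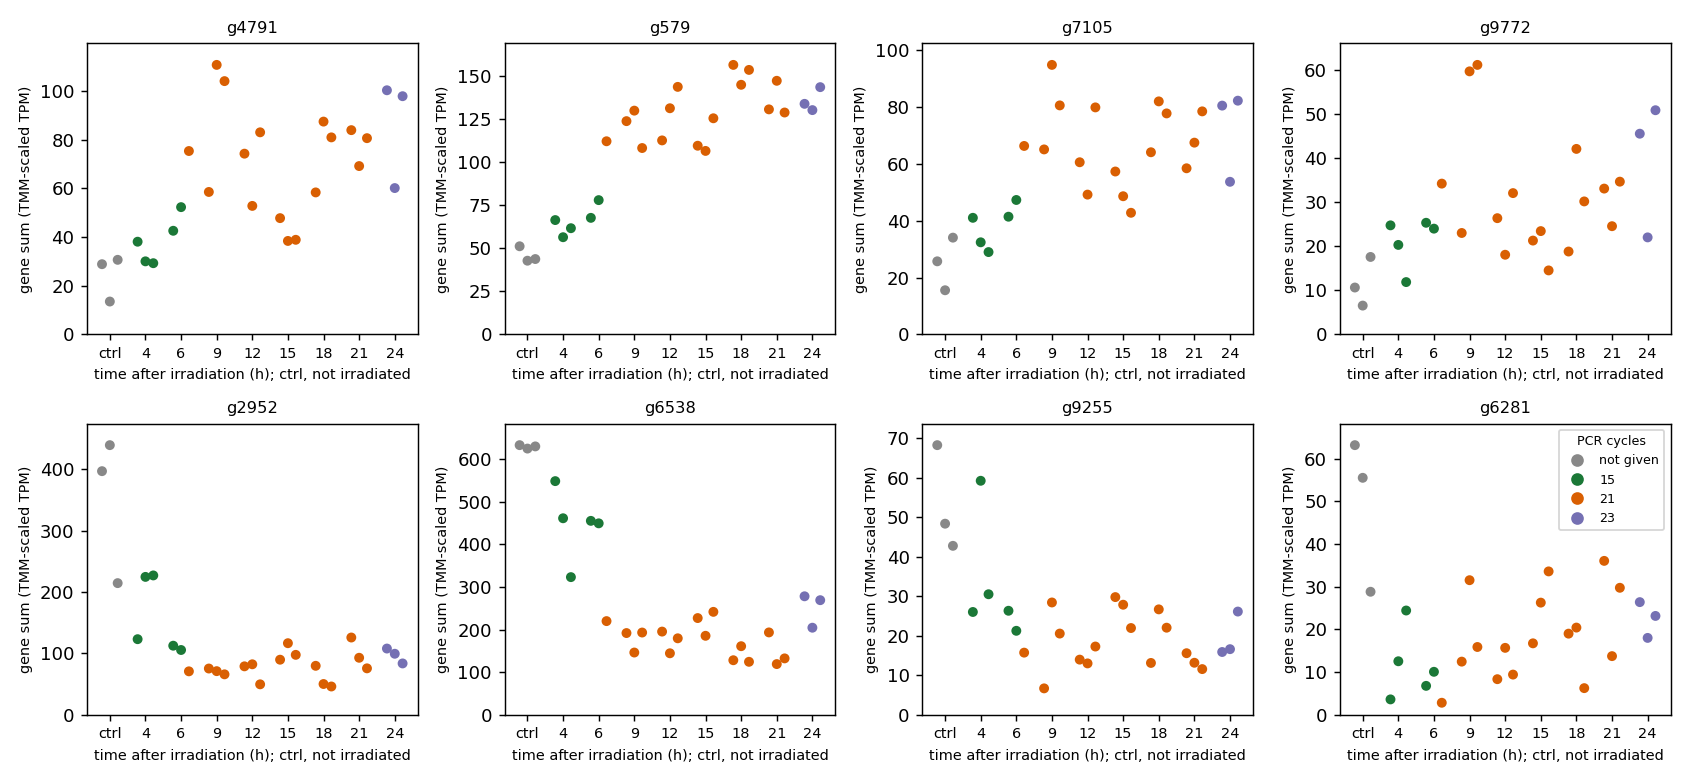
Gene sum (TMM-scaled TPM) of the 4 genes with the largest rise (upper row) and the 4 with the largest fall (lower row) in each of the 27 libraries, with colours for the number of PCR cycles. In g579 the controls lie at 42.9 to 51.2 and 12 h at 113 to 144, and in g6538 the controls lie at 625 to 633 and 12 h at 144 to 195.

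The libraries of 6 h were divided in the sums too. Of the 36 called genes that were higher late, 6 h replicate 3 was above both other 6 h samples in 35 (97.2%), and of the 17 that were lower late it was below both in 12 (70.6%). Over all genes called among the 9 groups these percentages were 85.3% and 69.7%. The part of the number of cycles in this was not tested. Among 9 h to 21 h, 0 of the 167 sums were called (beside 0.259% of all genes), and 1 had an adjusted p under 0.05 by limma. An unadjusted p under 0.05 was found in 24 of the 167, beside 1753 of all 12368 genes tested.

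The most abundant of the 167 were g10545, g12873 and g5794, with mean sums of 1864, 894 and 867. The sum of g10545 was at 1196, 1930.2 and 1245 in the controls and between 806 and 4008 later, and did not pass the test among the 9 groups (adjusted p = 0.197 by limma). Its model t2 was at 122, 369 and 298 in the controls and at 723, 1511 and 842 at 21 h, without overlap, and the share of t1 was 82.2% ± 6.96 and 37.8% ± 7.79 there (SD, n = 3; adjusted p = 0.156 among the 9 groups by limma). The sum of g5794 was called among the 9 groups (adjusted p = 0.0143 by limma), with 1899, 1233 and 1115 in the controls, 204, 477 and 228 at 6 h, 281, 959 and 218 at 12 h and 1010.2, 1419 and 1043 at 24 h. The controls were above all samples of 4 h to 12 h but 9 h replicate 1, and 24 h overlapped with them. In g12873 the shares were the closest between replicates of these 3, with a pooled SD of 3.40 points. Its main model t2 held 60.0% ± 0.802 for controls, 55.6% ± 1.17 for 4 h and 67.2% ± 1.48 for 12 h, and neither the share (adjusted p = 0.473 among the 9 groups by limma) nor the ratio of group means of the sum, 1.63-fold, was past the limits, although the sum had an adjusted p of 0.00458.

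The splits of g750, g6538 and g7376 had the smallest range between group means, although replicates of g6538 and g7376 had pooled SDs of 10.4 and 9.21 points. In g750 the models t1 and t2 had the same value in every library, the lowest being 78.2 (18 h replicate 2) and the highest 170.5 (4 h replicate 3), so its share was 50% throughout and gives no separate measure of the 2 models. Its controls averaged a sum of 310 ± 34.3 and its 9 h samples one of 180 ± 14.7 (SD, n = 3), and with a ratio of 1.74 between the highest and lowest group mean it was not called (adjusted p = 0.00297 among the 9 groups by limma). In g7376 the group means of the share of t1 spanned 7.33 points. It was at 57.0%, 56.5% and 56.3% in the controls and at 56.1%, 26.9% and 68.6% at 24 h, where replicate 2 stood apart.

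In 8 genes 3 models each held at least 10% of the mean sum, and the most abundant of these were g7288, g13317, g6170 and g7215. In g7288, with 5 models, t4 was at 159.6, 244 and 135 in the controls, 184, 178 and 157 at 4 h, 106, 52.5 and 35.4 at 12 h and 27.2, 20.3 and 19.1 at 24 h, where it was below all samples but 9 h replicate 1, at 0. Its model t1 was at 187, 212 and 237 in the controls and 209, 221 and 274 at 24 h, overlapping, and its share of 38.2% ± 4.57 and 61.0% ± 9.34 there did not pass the test (adjusted p = 0.282 among the 9 groups by limma). The model t2 of g7288 was at 134 in 9 h replicate 1, where t3, t4 and t5 were at 0, at 30.5 in 15 h replicate 3, 3.44 in 18 h replicate 1 and 21.9 in 24 h replicate 1, and at 0 in all other libraries.

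In g13317 the models t1 and t3 held 39.5% and 37.6% of the mean sum and t2 held less. The share of t1 lay between 35.7% and 43.8% in group means, and the sum was at 215, 130.4 and 265 in the controls and 419, 681 and 769 at 9 h, without overlap (adjusted p = 0.0165 among the 9 groups by limma). That call was lost without 9 h replicate 2 or 9 h replicate 3. In g7215 the model t1 was at 40.6, 39.1 and 38.0 in the controls and at 0, 18.7 and 1.72 at 24 h, while t3 was at 25.8, 25.7 and 26.1 and at 60.5, 44.8 and 64.3, without overlap in either. The share of t3, 39.7% ± 0.978 in the controls and 64.1% ± 18.6 at 24 h, did not pass the test (adjusted p = 0.756 among the 9 groups by limma). In g6170 the sum was at 85.1, 75.9 and 93.3 in the controls and 135, 129 and 148 at 12 h, without overlap, a ratio of group means of 1.62-fold (adjusted p = 0.000151 by limma), and its model t3 was at 2.04, 2.07 and 0 in the controls and 0.366, 136 and 105 at 24 h, where replicate 1 lay within the controls.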

How the data were processed

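RNA of 27 samples was sequenced as 75 bp single-end reads. The deposited signal values are TPM per transcript model, which the authors estimated with RSEM from bowtie2 alignments to the coding sequences and multiplied by a TMM factor per library. Versions of both tools are not given in the sources used here. The table holds 14532 models of 13920 genes, no counts and 0 columns without a sample.

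Models of a gene (IDs that differ after the point) were summed. Fits used limma 3.58.1 under R 4.3.3, with a mean for each of the 9 groups, a trend, a pseudocount of 1 and Benjamini-Hochberg adjustment. They were run on simulated data too. There the spread of the shares between replicates was capped, so the simulation does not show how the share test behaves at the widest spreads seen here. Genes were named by rule: the 4 largest rises and falls and up to 8 largest share changes among those called, the 3 most abundant, the 3 shares with the smallest range of group means, the neighbours of each limit and 4 genes with 3 models of at least 10% each. The genes, rules and tests were chosen with earlier results of these data known. g3270, g814, g10219, g12633 and the 3 models of control replicate 3 were named after their values were seen. The alternatives were equal library sums, another pseudocount, no filter, no fold limit, other limits of the set and of the share, the share in percent, fits of 2 groups, a replicate block and each library left out. Sequences were not used here. The plots were made in matplotlib 3.10.9 under Python 3.11.15.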

Additional observations from a re-analysis of the deposited data

How the results depend on the processing

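The deposited TPM values hold no counts, and the read numbers that the study lists were compared between libraries above but entered no fit. No counting error is therefore given for a share, and the samples of a group are technical replicates. Time and PCR cycles cannot be told apart except among libraries that share either of them. The counts of calls in this section are of the chosen genes only, with no share over all genes given beside them. They therefore do not show whether a changed setting moved these genes or all genes. With equal library sums 45 sums were called at 24 h. Without the fold limit the sums called were 93 among the 9 groups, 1 among 9 h to 21 h, 3 for 4 h, 83 for 12 h and 82 for 24 h. In fits of only the 2 groups compared, 1 sum was called at 4 h, and 4 shares at 12 h and 1 at 24 h. With a pseudocount of 0.1, 3 shares were called at 12 h, and with the share in percent 3 among the 9 groups. Without the 5 libraries with most models at 0, a choice made after seeing the data, 1 sum and 1 share were called among 9 h to 21 h, 2 sums at 4 h and 3 shares each at 12 h and 24 h. With at least 30% in the second model 109 genes were in the set. Direction was compared only for the sums at 12 h of the genes with the largest rises and falls, and none of these reversed.

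Leaving out each library in turn gave 45 to 58 sums among the 9 groups, 0 among 9 h to 21 h, 0 to 1 at 4 h (1 without 4 h replicate 3 or 9 h replicate 1), 25 to 38 at 12 h and 17 to 39 at 24 h. For shares it gave 2 to 9 among the 9 groups, 0 to 2 among 9 h to 21 h (2 without 9 h replicate 3), 0 at 4 h, 1 to 5 at 12 h and 1 to 8 at 24 h. At 12 h there were 2 without 6 h replicate 1, 9 h replicate 2 or 21 h replicate 1 or 3, 3 without 6 h replicate 2 or 3, and 4 without 18 h replicate 2 or 3, 21 h replicate 2 or 24 h replicate 2 or 3. At 24 h there were 2 without control replicate 2, any replicate of 4 h or 12 h, 15 h replicate 2 or 3, 18 h replicate 1 or 24 h replicate 2, and 3 without control replicate 1 or 21 h replicate 3.

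The main fits did not pair samples by replicate number. Deviations of same-numbered samples from their group means correlated over 0.1 in 5 of 108 pairs for sums and 16 of 108 for shares. The highest correlations were 0.157 and 0.318. The medians were -0.0005 and -0.0011, beside 0.0047 and 0.0008 for samples with other numbers. Such values do not exclude a pairing. With the replicate block 50 sums and 4 shares were called among the 9 groups and 3 shares at 24 h.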
